A study of Mus musculus with 10 samples.

Results

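The stellate and mesenchymal genes are 10 genes of the connective-tissue cells of the liver. They comprise the fibrillar collagen chains Col1a1, Col1a2 and Col3a1, the proteoglycan core proteins Dcn and Lum, the receptors Pdgfra and Pdgfrb, the filament gene Des, the transcription factor gene Lhx2 and Reln, which encodes a secreted glycoprotein. Their probe sets were those whose platform annotation carried exactly 1 gene symbol, with that symbol among the 10, which gave 20 of the 45037 probe sets on the array and at least 1 for each gene. RNA of 10 mouse fetal livers at embryonic day 14.5 was hybridised to 1 Affymetrix array per liver, with 5 livers from Zfp36l2 knockout (KO) fetuses and 5 from wild type (WT) fetuses. Both groups were of a mixed b6 and 129 strain background, no treatment is named, and each replicate was the liver of 1 fetus. The labels do not say how the knockout allele was made, and they give no litter or sex. Zfp36l2 encodes a zinc-finger protein of the tristetraprolin group, which recruits the deadenylation machinery to AU-rich messages. The comparison addresses how liver transcripts differ in fetuses that lack it.

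Hepatic stellate cells lie between the sinusoidal endothelium and the hepatocytes, where they store vitamin A and act as pericytes. With fibroblasts around the portal vessels and the capsule they make most of the fibrillar collagen of the liver, and stimulation through platelet-derived growth factor and TGF-beta receptors drives their growth and matrix production in fibrosis. In the fetus, mesenchymal cells of this lineage border the niches in which blood cells form, and mice without Lhx2 develop small, fibrotic livers with poor blood formation. In bulk tissue, fewer cells of a type and less RNA per cell cannot be told apart.

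Intensities are given after quantile normalization, on a linear scale. Values under 16 were raised to 16 before log2 was taken, and a probe set was tested if its mean over the 10 livers was 32 or more. That left 12 of the 20 probe sets, from 9 of the 10 genes, among 18799 tested in all. Of the members, those nearest to the limit were a Pdgfra probe set at a mean of 30.5, just outside it, and the Lhx2 probe set at 81.0, the dimmest inside it. The brightest Zfp36l2 probe set stood at 102 ± 11.3 in KO livers and 434 ± 91.0 in WT livers (SD, n = 5 each; limma adjusted p = 8.2e-06), and no livers overlapped. The other Zfp36l2 probe sets averaged 25.05 and -40.1 in KO livers and 31.4 and -26.1 in WT livers, too dim to test, and which part of the gene each covers was not analysed here. Array medians ran from 19.5 to 24.2 in KO livers and from 22.0 to 25.0 in WT livers before normalization, and no array stood apart by its mean correlation with the others (0.954 to 0.960).

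No tested member passed the test between KO and WT livers. In limma 0 of 12 probe sets passed an adjusted p of 0.05, against 0.234% of all tested probe sets (44 of 18799, 20 higher and 24 lower in KO livers). At an unadjusted p under 0.05 there was 1 of 12, a Col3a1 probe set, against 11.8% of all. The member changes ran from -0.18 to 0.43 on the log2 scale with a median of 0.02, and 8 of 12 were above 0; over all tested probe sets the median was -0.00393 and 49.1% were above 0. Relative to WT livers, most members spread more among KO livers than most probe sets did. This is described after the genotype comparison and is not shown to be particular to the members.

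**Figure D1:**
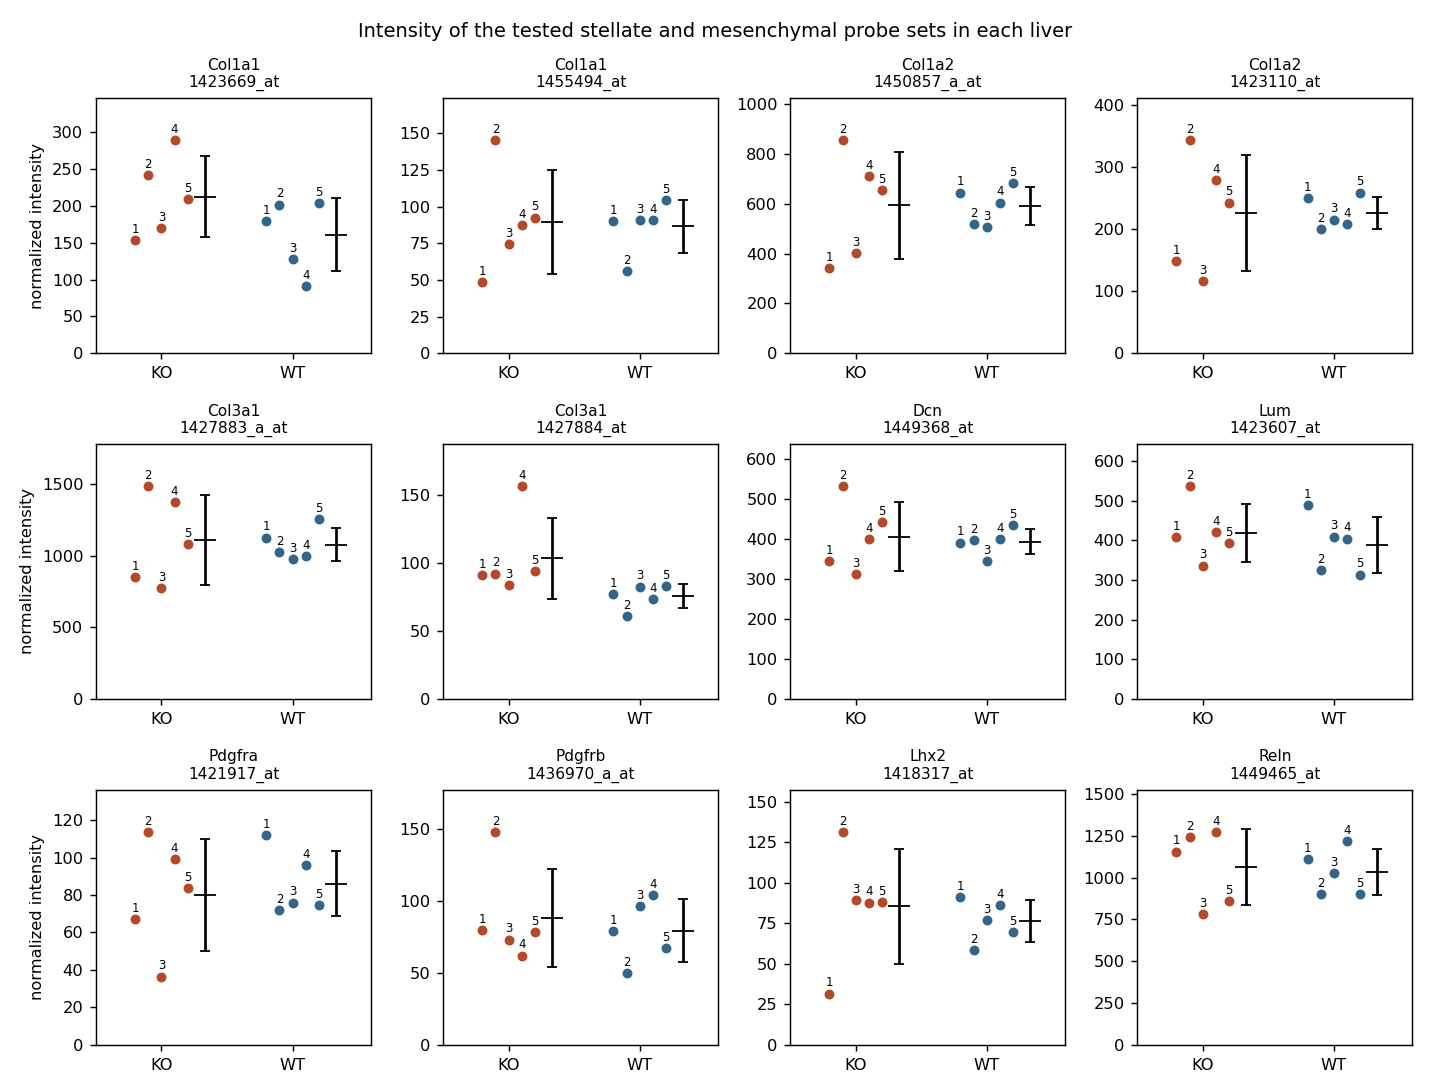
Normalized intensity (linear axis from 0) of the 12 tested probe sets in each liver, KO in red and WT in blue, with the replicate number above each point and the mean ± SD beside each group. KO replicate 2 is the highest of the 10 livers in 9 of the 12 panels, and the groups overlap in every panel except that of the Col3a1 probe set 1427884_at.

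Col1a2 and Col1a1 encode the chains of type I collagen, and Col3a1 that of type III collagen, which forms the fine reticular fibres of the liver. The brighter Col3a1 probe set, 1427883_a_at, read 849, 1483, 771, 1373 and 1078 in KO replicates 1 to 5, against 1125, 1026, 976, 994 and 1254 in WT replicates 1 to 5. KO replicates 2 and 4 lay above every WT liver and KO replicates 1 and 3 below every one, so that the means of 1111 ± 313 in KO livers and 1075 ± 115 in WT livers were close (SD, n = 5 each). The log2 difference was 0.01 ± 0.16 (SE; limma adjusted p = 0.993), with a 95% interval of -0.33 to 0.35, or 0.794-fold to 1.27-fold. The dimmer Col3a1 probe set, 1427884_at, read 91.0, 92.2, 83.9, 156 and 94.2 in KO livers, against 77.3, 61.2, 82.6, 73.7 and 82.8 in WT livers. Here every KO liver was above every WT liver, by little except in KO replicate 4, and 1.40% of all tested probe sets showed such a separation upwards and 1.57% the opposite one, which no member showed. Its log2 difference was 0.42 ± 0.18 (limma unadjusted p = 0.034, adjusted p = 0.374), with an interval of 0.04 to 0.81, and it was 0.27 without KO replicate 4. The 2 probe sets of the same gene thus gave unlike estimates, though their intervals overlapped. The log2 ratio of the bright to the dim one was 3.42 ± 0.36 in KO livers and 3.83 ± 0.19 in WT livers. It ran from 3.13 to 4.01 in KO livers and from 3.56 to 4.07 in WT livers, and this difference was not tested. Which part of the transcript each covers was not analysed here.

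The brightest Col1a2 probe set, 1450857_a_at, read 342, 854, 404, 711 and 656 in KO livers, against 645, 519.7, 506, 605 and 683 in WT livers. As for Col3a1, KO replicates 1 and 3 were the lowest of the 10 livers and KO replicates 2 and 4 the highest, and the group means were 593 ± 215 in KO livers and 592 ± 77.2 in WT livers. The log2 difference was -0.07 ± 0.21 (limma adjusted p = 0.937; interval -0.52 to 0.38). A second Col1a2 probe set, 1423110_at, had the same livers at both ends, with 149, 343, 117, 279 and 243 in KO livers and 249, 200.3, 215, 208 and 259 in WT livers. Its difference was -0.10 ± 0.24 (limma adjusted p = 0.917). The third, 1446326_at, averaged 20.4 in KO livers and 17.0 in WT livers and was not tested.

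Shown are the 200 bases before the RefSeq starts of Col1a2 and Col3a1 (GRCm38.p6, plus strand, Col1a2 at chr6:4505418-4505617 and Col3a1 at chr1:45311338-45311537). Capitals mark a CCAAT box (CCAAT), a GC box (GGGCGG) or a TATA box (TATAAA), each searched on both strands with no overlap between them here.
Col1a2: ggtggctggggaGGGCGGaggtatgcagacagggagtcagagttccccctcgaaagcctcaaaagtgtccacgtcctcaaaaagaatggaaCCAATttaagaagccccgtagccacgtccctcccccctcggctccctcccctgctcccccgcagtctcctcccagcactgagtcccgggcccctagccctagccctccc
Col3a1: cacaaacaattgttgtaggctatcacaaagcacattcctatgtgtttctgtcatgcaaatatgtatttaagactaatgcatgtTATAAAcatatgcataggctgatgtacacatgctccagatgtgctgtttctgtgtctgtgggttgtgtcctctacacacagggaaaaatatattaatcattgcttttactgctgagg
The Col1a2 window held 1 CCAAT, whose first base is 109 bases before the start, and 1 GGGCGG at 188 bases before it. The Col3a1 window held neither, and 1 TATAAA at 117 bases before its start. Of all 32851 such windows in the table, 29.3% held CCAAT, 31.0% held GGGCGG and 9.96% held TATAAA. These are matches of letters only, and the table gave windows for 6 of the 10 members. Their bearing on the liver-to-liver values was not tested.

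The 2 tested Col1a1 probe sets also gave unlike estimates, though their intervals overlapped and the difference between them was not tested. Probe set 1423669_at read 153, 241, 169.7, 289 and 209 in KO livers, against 179.9, 202, 128, 91.2 and 204 in WT livers. KO replicates 2, 4 and 5 were above every WT liver, and WT replicate 4 was the lowest of all. Its log2 difference of 0.43 ± 0.23 was the highest among the members and did not pass (limma unadjusted p = 0.083, adjusted p = 0.500; interval -0.06 to 0.92), and it was 0.24 without WT replicate 4. Probe set 1455494_at read 48.4, 145, 74.2, 87.5 and 92.5 in KO livers, against 90.0, 56.1, 91.0, 90.9 and 104 in WT livers. KO replicate 2 was the highest and KO replicate 1 the lowest liver, and the difference was -0.01 ± 0.26 (limma adjusted p = 0.994; interval -0.56 to 0.54).

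**Figure D2:**
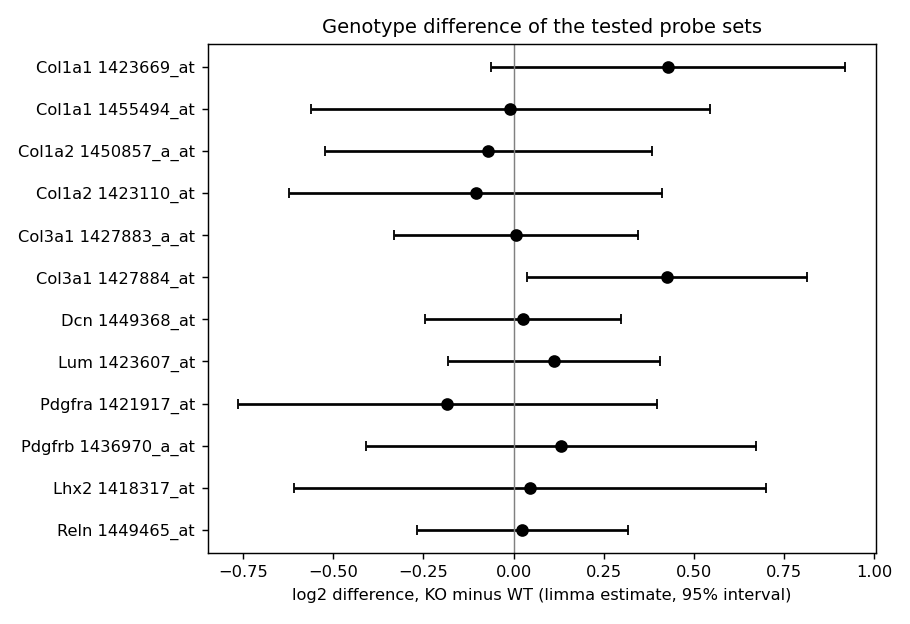
Log2 difference, KO minus WT, of the 12 tested probe sets, with points for the limma estimate and bars for its 95% interval. The interval spans 0 for all of them except Col3a1 1427884_at, whose interval runs from 0.04 to 0.81.

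Decorin (Dcn) and lumican (Lum) are small leucine-rich proteoglycans that bind fibrillar collagen and govern the width of its fibrils. Their genes lie next to each other on chromosome 10. Dcn read 345, 533, 313, 401 and 443 in KO livers, against 392, 397, 346, 399.7 and 435 in WT livers. KO replicate 2 was again the highest liver and KO replicate 3 the lowest, and the difference was 0.03 ± 0.13 (limma adjusted p = 0.964). Its interval of -0.25 to 0.30, or 0.843-fold to 1.23-fold, was the narrowest among the members. A second Dcn probe set, 1441506_at, was under 16 in all 5 KO livers and in 4 of 5 WT livers. Lum read 409, 536, 336, 419.9 and 392 in KO livers, against 488, 325, 409.5, 404 and 314 in WT livers. WT replicates 2 and 5 were the lowest of the 10 livers for this gene, and the difference was 0.11 ± 0.14 (limma adjusted p = 0.815; interval -0.18 to 0.41).

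Pdgfra and Pdgfrb encode the receptor tyrosine kinases for platelet-derived growth factors, the first found on many fibroblasts and the second on pericytes and stellate cells. Pdgfra, by probe set 1421917_at, read 67.2, 114, 36.4, 99.3 and 83.7 in KO livers, against 112, 71.9, 75.9, 96.1 and 74.5 in WT livers. KO replicate 3 was well below the other 9 livers. The difference was -0.18 ± 0.27 (limma adjusted p = 0.851; interval -0.76 to 0.40), and it was 0.07 without KO replicate 3. The other Pdgfra probe sets averaged 31.2 and -14.0 in KO livers and 29.8 and -22.8 in WT livers and were not tested. Pdgfrb, by probe set 1436970_a_at, read 80.0, 148, 73.1, 62.0 and 78.3 in KO livers, against 79.1, 49.8, 96.6, 104 and 67.2 in WT livers. Without KO replicate 2, its only KO value above the WT range, the difference of 0.13 ± 0.25 (limma adjusted p = 0.894; interval -0.41 to 0.67) was -0.07. The other Pdgfrb probe set lay below 0 on all 10 arrays.

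Desmin (Des), the muscle-type intermediate filament protein by which stellate cells are often recognised in rodents, was at background by both of its probe sets. The first read 18.9, 25.1, -8.04, -49.7 and 9.47 in KO livers, against 2.19, -3.48, -5.77, -2.05 and -0.891 in WT livers. The second lay between -4.03 and 21.5 in KO livers and between -36.0 and 16.4 in WT livers. Neither was tested, and no fold is given. Of the 10 markers, the collagens, Dcn, Lum and Reln were thus well above background, Lhx2 and the receptors were dim, and Des gave no signal that separates it from background, so 9 of the 10 genes gave a signal that could be tested.

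Lhx2 encodes a LIM-homeodomain factor of stellate cells. It read 31.6, 131, 89.1, 87.7 and 88.1 in KO livers, against 91.1, 58.5, 76.8, 86.2 and 69.3 in WT livers. KO replicate 1 was the lowest and KO replicate 2 the highest of the 10 livers, while the other 3 KO livers lay within the WT range. The difference was 0.05 ± 0.30 (limma adjusted p = 0.974), and its interval of -0.61 to 0.70, or 0.655-fold to 1.62-fold, was the widest among the members. Without KO replicate 1 it was 0.37.

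Reln encodes reelin, a large extracellular protein known from neuronal layering, which stellate cells make in the liver. Its bright probe set, 1449465_at, read 1155, 1243, 783, 1272 and 858 in KO livers, against 1110, 901, 1028, 1217 and 902 in WT livers. KO replicates 3 and 5 were the lowest livers and KO replicates 2 and 4 the highest, with a difference of 0.02 ± 0.14 (limma adjusted p = 0.969; interval -0.27 to 0.32, or 0.830-fold to 1.25-fold). The second Reln probe set averaged 28.4 in KO livers and 32.1 in WT livers and was not tested. To set beside the collagen windows, the 200 bases before the RefSeq start of Reln (GRCm38.p6, chr5:22344706-22344905, minus strand, read 5′ to 3′ on that strand) held 6 GGGCGG, shown in capitals, and neither of the other motifs.
Reln: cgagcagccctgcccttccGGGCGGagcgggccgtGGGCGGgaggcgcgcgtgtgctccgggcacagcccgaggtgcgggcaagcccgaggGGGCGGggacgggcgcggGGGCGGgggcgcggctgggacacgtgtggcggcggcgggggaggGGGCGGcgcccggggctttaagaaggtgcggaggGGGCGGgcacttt

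The members differed more among KO livers than among WT livers. The SD of the log2 values was larger in KO than in WT livers for 10 of 12 probe sets, against 44.4% of all tested probe sets. It was at least 2 times as large for 7 of 12, against 9.07% of all. The median ratio of the KO to the WT SD was 2.16 for the members and 0.929 over all tested probe sets. The ratio was highest for Col1a2 1423110_at (SD 0.65 in KO livers and 0.16 in WT livers, a ratio of 3.96) and was 3.01 for Lhx2, 2.76 for Col3a1 1427883_a_at, 2.56 for Dcn and 2.32 for Pdgfra. It was under 1 for Lum (0.923) and for Col1a1 1423669_at (0.737). With each liver left out in turn, the members' median ratio stayed between 1.99 and 2.47, and 9 to 11 of the 12 had the larger SD in KO livers. This comparison of spreads was chosen after the values were seen, the 12 probe sets share livers and in part genes, and no test was made of it. The ratio was not computed for related matrix and mesenchymal genes, so the wide KO spread is not shown to be particular to the members. By the SD of the intensities, related genes went both ways. It was 73.5 in KO and 16.4 in WT livers for Col6a2, and 54.3 and 20.9 for Col5a2. For Plod1 it was 36.6 in KO and 44.4 in WT livers, and for Tgfbr3 25.4 and 44.5.

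The spread followed particular livers. KO replicate 2 held the highest of the 10 values for 9 of the 12 probe sets, where 11.7% of all tested probe sets had theirs. KO replicates 1 and 3 held the lowest value for 3 and 5 of the 12, together against 19.1% of all. As the median over the 12 probe sets of a liver's log2 value minus the mean of the 10 livers, KO replicates 1 to 5 stood at -0.23, 0.49, -0.29, 0.31 and 0.12, against 0.10, -0.17, -0.04, 0.05 and 0.03 for WT replicates 1 to 5. All 12 probe sets were above their mean in KO replicate 2, and 11 of 12 were below it in KO replicate 3. The KO livers thus reached further in both directions than the WT livers did.

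**Figure D3:**
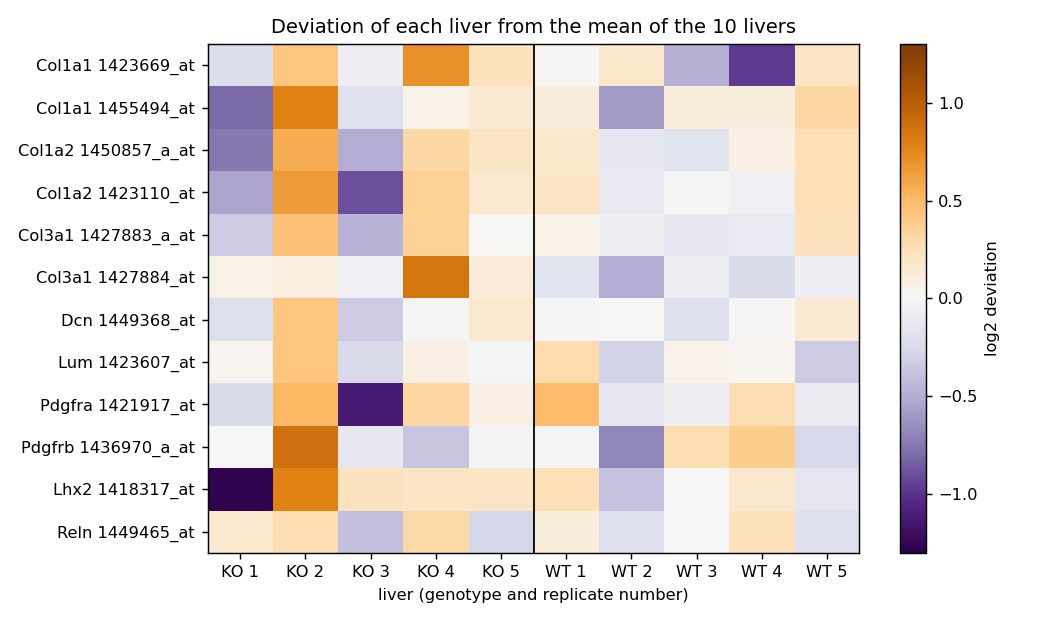
Deviation of each liver's log2 value from the mean of the 10 livers, for the 12 tested probe sets (rows) in 5 KO and 5 WT livers (columns), with orange above and purple below the mean. The column of KO replicate 2 is above the mean in every row, and that of KO replicate 3 is below it in 11 of 12 rows.

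Other cell types were read in the same livers. The mesothelial list score, over its 2 tested genes Alcam and Upk3b, was 0.64 in KO replicate 2, the highest of the 10 livers, and -0.26 in KO replicate 3, the lowest of the KO livers, with -0.12 to 0.20 in the other KO livers and -0.58 to 0.50 in WT livers. The summed intensity of these genes ran from 213 to 347 in KO livers and from 213 to 311 in WT livers, and 5 of the 7 listed genes, Wt1 and Msln among them, were too dim to test. In KO replicate 2 the endothelial list score, which is the median over its 9 tested genes of the log2 deviation, was 0.30, against -0.07 to 0.10 in the other KO livers and -0.10 to 0.04 in WT livers. The summed intensity of the endothelial list ran from 1030 to 1308 in KO livers and from 988 to 1114 in WT livers. The hepatocyte score of KO replicate 2 was -0.12, the lowest of the 10 livers, and its megakaryocyte score was -1.04, also the lowest. In KO replicate 3 the endothelial score was -0.06 and the macrophage score was 0.40, the highest of the 10. The macrophage score of KO replicate 2 was 0.28. In KO replicate 4, where the member median was 0.31, the endothelial score was -0.07. In KO replicate 1, with a member median of -0.23, the endothelial score was 0.08. None of the 11 striated and heart muscle genes was tested, the brightest averaging 20.8, and none of the skin genes. Of the 10 cartilage and bone genes only Sp7 was tested (36.0 in KO livers and 49.2 in WT livers, limma adjusted p = 0.635), and of the 8 gut and pancreas genes only Tff3 (88.4 and 85.7, adjusted p = 0.935). The part of these cell types, and of dissection, in the spread of the members was not tested.

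Deviations from the genotype means were correlated over the 10 livers for the 36 pairs of the 9 tested member genes, each by its brightest probe set, with exact permutation within genotypes. The deviations were not scaled, so livers of the genotype with the larger SD weighed more in r. These were the KO livers, except for Col1a1 and Lum. Of the 36 values of Pearson's r, 33 were positive, from -0.42 to 0.92 with a median of 0.46, and 10 had an unadjusted exact p under 0.05. The 36 pairs share 9 genes and 10 livers and are not independent. The matching shares among other gene pairs were not computed, so these counts have no background to be read against. By Pearson's r 0 pairs passed after Benjamini-Hochberg adjustment over the 36, and by Spearman's rho 1 did, Col1a2 with Col3a1 (r = 0.92, exact permutation p = 0.00486, adjusted p = 0.0912; rho = 0.94, exact p = 0.00111, adjusted p = 0.0400). Leaving out the 2 livers farthest from the median of Col1a2 gave r = 0.90, and of Col3a1 r = 0.88. The other 9 of the 10 pairs failed both adjusted tests. Col1a2 with Dcn gave r = 0.88 (exact permutation p = 0.0131, adjusted p = 0.0912; rho = 0.81, adjusted p = 0.225), with r of 0.83 and 0.80 after leaving out the farthest livers. Lum with Pdgfra gave r = 0.78 (exact permutation p = 0.00861, adjusted p = 0.0912; rho = 0.81, adjusted p = 0.127) and with Reln r = 0.75 (exact permutation p = 0.0108, adjusted p = 0.0912; rho = 0.71, adjusted p = 0.137). Without the farthest livers these were 0.66 in both orders for Pdgfra, and 0.79 and 0.70 for Reln. Col1a1 with Col3a1 gave r = 0.69 (0.74 and 0.75 without the farthest livers; rho = 0.75). Other pairs rested more on single livers. Col1a2 with Lhx2 gave r = 0.76 (rho = 0.45), which was 0.77 without KO replicates 1 and 3 and 0.19 without KO replicates 1 and 2. Col3a1 gave r = 0.86 with Dcn (rho = 0.73) and 0.79 with Pdgfra (rho = 0.67), which were 0.64 and 0.49 without KO replicates 2 and 3. Pdgfra with Reln gave 0.76 (0.52 and 0.78 without the farthest livers; rho = 0.82), and Lum with Pdgfrb 0.71 (0.62 and 0.45; rho = 0.77). The adjusted p of Pearson's r was 0.0912 for these pairs except Pdgfra with Reln (0.0969) and Lum with Pdgfrb (0.155), all by exact permutation, and that of rho was 0.127 to 0.504. The lowest r was that of Col1a1 with Pdgfrb (-0.42, exact permutation p = 0.248, adjusted p = 0.452; rho = -0.52, adjusted p = 0.414), with -0.34 and -0.72 after leaving out the farthest livers. Dcn and Lum, adjacent in the genome, had r = 0.41 (exact permutation p = 0.261, adjusted p = 0.452; rho = 0.21, adjusted p = 0.799), which became -0.38 without KO replicates 2 and 3 and 0.0016 without KO replicate 2 and WT replicate 1.

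The wider matrix and mesenchymal programme was read from 9 lists of 112 related genes, of which 70 were tested. Tgfbi rose and Thbs1 fell in KO livers, and the other 68 did not pass in limma, against 0.323% of all 9906 genes with a tested probe set; 10 of the 70 had an unadjusted p under 0.05, against 13.1% of all. Changes above 0 made up 52 of 70, with a median of 0.10 on the log2 scale, where over all genes 50.0% were above 0 and the median was 0.000109. Tgfbi, a TGF-beta-induced matrix protein also made by macrophages, averaged 242 ± 15.1 in KO livers and 154 ± 27.4 in WT livers (log2 0.67 ± 0.12, limma adjusted p = 0.0386), and its 3 other tested probe sets gave 0.40 to 1.08. It was called with 1 of 10 livers left out singly, WT replicate 5, at 0.61 to 0.77 throughout. Thbs1 encodes thrombospondin 1, a matrix protein that platelets also store in their alpha granules. It averaged 131 ± 32.6 in KO livers and 228 ± 17.2 in WT livers (log2 -0.83 ± 0.15, limma adjusted p = 0.0476), and its other tested probe set gave -0.62. It kept its call only without KO replicate 5 or WT replicate 5, at -0.94 to -0.73 over the 10 omissions.

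Beside these values stand those of the cells that share the genes. All 8 tested macrophage markers had changes above 0, from 0.17 to 0.44, none of them passed in limma, and the unadjusted p was under 0.05 for 4 of the 8. Their summed intensity ran from 2607 to 3421 in KO livers and from 1967 to 3137 in WT livers, and Csf1r, the receptor for macrophage colony-stimulating factor, averaged 1010 ± 117 in KO livers and 761 ± 212 in WT livers (limma adjusted p = 0.226; called only when WT replicate 5 was left out, among single omissions). Leaving out WT replicate 5 raised the calls over all probe sets from 44 to 147. All 6 tested megakaryocyte genes had negative changes, from -1.59 to -0.83, each with an unadjusted p under 0.05 in limma. Of these, 4 were called lower in KO livers, Pf4 (log2 -1.39), Ppbp (-1.38), Itga2b (-0.83) and Gp5 (-1.59). The summed intensity of the 6 ran from 1375 to 2348 in KO livers and from 3490 to 5014 in WT livers. With single livers left out Pf4 and Ppbp were called in all 10 fits, Gp5 in 4 and Itga2b in 2. The part of macrophages in the Tgfbi value and of megakaryocytes in the Thbs1 value was not tested.

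Apart from Tgfbi and Thbs1 no gene of these lists was called. Of the 10 other collagens tested, 7 were above 0 with a median of 0.11, and the brightest, the basement membrane collagen gene Col18a1, averaged 840 ± 59.6 in KO livers and 732 ± 59.2 in WT livers (log2 0.20 ± 0.07, limma unadjusted p = 0.0173, adjusted p = 0.293). Of the 13 genes of collagen maturation and cross-linking, 12 were above 0 with a median of 0.14 and none had an unadjusted p under 0.05, and the foldase gene Ppib averaged 3950 ± 190 in KO livers and 3889 ± 142 in WT livers (adjusted p = 0.907). Bgn, the proteoglycan biglycan, averaged 452 ± 51.3 in KO livers and 405 ± 31.9 in WT livers (adjusted p = 0.544), and only 2 of its list of 9 were tested. Among 11 matrix glycoprotein and elastic fibre genes 9 were above 0. Besides Thbs1, Fn1 and Sparc, named after their values were seen, had an unadjusted p under 0.05. Fn1 changed by 0.37 ± 0.10 (limma adjusted p = 0.129) and Sparc by 0.49 ± 0.15 (adjusted p = 0.197). Among 5 genes of matrix turnover 3 were above 0. The membrane-bound collagenase gene Mmp14 changed by 0.29 ± 0.13 (adjusted p = 0.419) by its brightest probe set and by -0.04 and -0.02 by the others. For the ligands of the receptors above, 2 of 4 PDGF genes were tested, and Pdgfc changed by 0.02 ± 0.29 (adjusted p = 0.986). Of the reelin receptors and adaptor 2 of 3 were tested, and the receptor gene Vldlr changed by 0.11 ± 0.27 (adjusted p = 0.924). Among 9 TGF-beta genes 7 were above 0, and Tgfbi was the single one with an unadjusted p under 0.05.

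Of 16 other stellate and pericyte genes 10 were above 0, with a median of 0.03 and none called in limma. Vim, the intermediate filament gene of mesenchymal cells that endothelium and leukocytes also express, averaged 2061 ± 109 in KO livers and 1628 ± 244 in WT livers (log2 0.35 ± 0.08, limma adjusted p = 0.101). Of its livers only WT replicate 5, at 2057, reached the KO values of 1913 to 2219, and without it Vim was called. Without that liver 147 probe sets were called in all, against 44 with every liver. Myl9, a smooth muscle myosin light chain gene named after its values were seen, had the lowest p of the 16 and the opposite sign. It averaged 88.0 ± 17.2 in KO livers and 145 ± 17.8 in WT livers (log2 -0.74 ± 0.15, limma adjusted p = 0.0641), and every KO liver, from 71.8 to 115, was below every WT liver, from 122 to 170.4. Of all tested probe sets, 1.57% showed this separation downwards. Which cell types account for the Vim and Myl9 values was not tested. Of the 2 mesothelial genes tested, Alcam averaged 217 ± 43.8 in KO livers and 221 ± 26.9 in WT livers (adjusted p = 0.947). The endothelial Lyve1 averaged 352 ± 39.4 in KO livers and 318 ± 24.1 in WT livers (adjusted p = 0.616), and Afp of hepatoblasts and Slc4a1 of red cells had adjusted p-values of 0.964 and 0.999. These brightest genes did not stand for their lists. The other 4 tested erythroid genes, named after their values were seen, all had negative changes with an unadjusted p under 0.05 and none was called in limma: Gata1 at -0.21 and Epor at -0.44, whose groups did not overlap, and Klf1 at -0.16 and Alas2 at -0.24. For Gata1 and Epor, too, the share over all tested probe sets to read beside this is 1.57%. The erythroid list score ran from -0.20 to -0.03 in KO livers and from 0.02 to 0.22 in WT livers. Among the 8 hepatoblast and hepatocyte genes, Fgb (0.51, limma adjusted p = 0.191) and Hnf4a (0.26, adjusted p = 0.392), also named after their values were seen, had an unadjusted p under 0.05. KO replicate 2 had the highest score of the 10 livers in 7 of the 9 related lists, among them the other collagens (0.29) and the other stellate and pericyte genes (0.25).

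**Figure D4:**
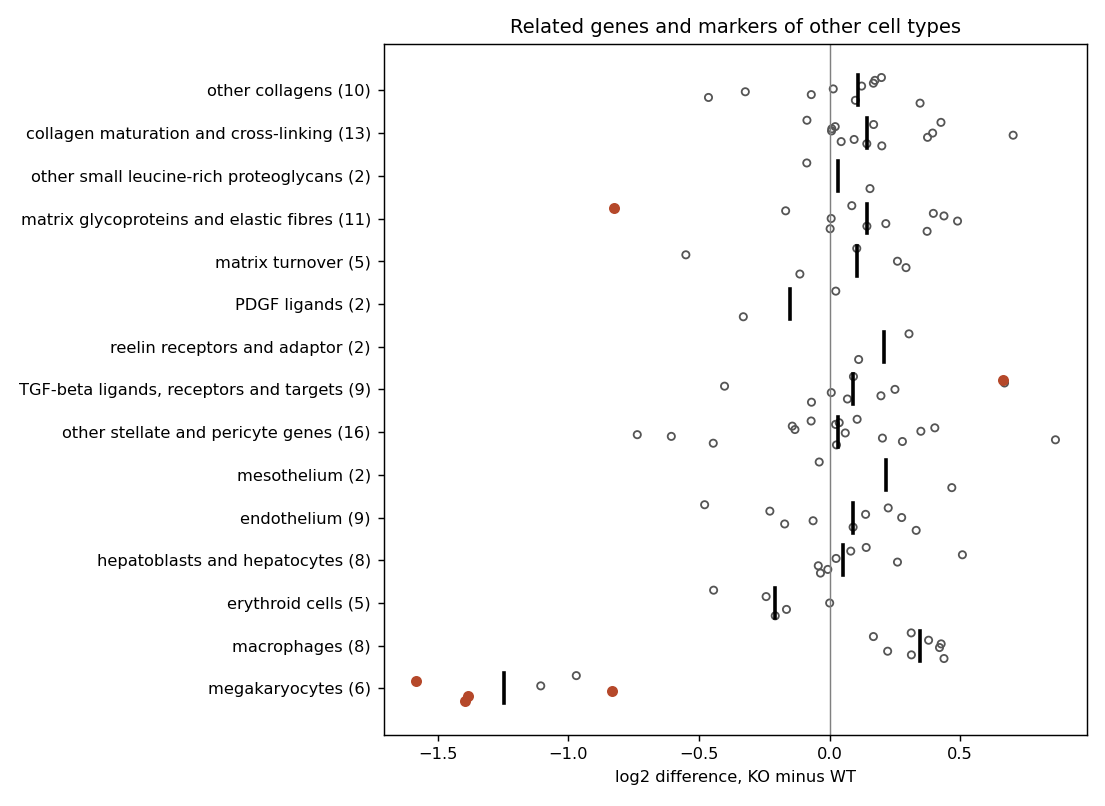
Log2 difference, KO minus WT, of each tested gene of the related lists and of marker lists with at least 2 tested genes (number tested in brackets); filled points passed an adjusted p of 0.05 in limma, open points did not, and bars are list medians. Among the related lists only Tgfbi (0.67) and Thbs1 (-0.83) are filled, beside 4 megakaryocyte genes.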

How the data were processed

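Each array's deposited column gives a linear intensity for every probe set. Values reach down to -1090, as after a background subtraction, and neither the authors' software nor their scaling is named in the labels or the table. Per the labels' protocols, total RNA of each liver was labelled with biotin by a one-cycle Affymetrix kit. Probe sets were named from the platform annotation (34945 with 1 symbol, 932 with several, 9160 with none), updated by gene ID.

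Here the intensities were quantile-normalized, values under 16 were set to 16 and log2 was taken; probe sets with a mean normalized intensity of 32 or more were tested. KO was compared with WT with limma 3.58.1 under R 4.3.3, by a two-sided moderated test with an intensity trend in the prior variance. The p-values of all 18799 tested probe sets were adjusted together by Benjamini-Hochberg, and 0.05 was the limit for a call. A gene was represented by whichever tested probe set had the greatest log2 mean. Precision is limited by the number of arrays. The fit was tested on simulated data made from these probe sets. With changes put into tested probe sets other than the dimmest, it recovered 47.6% of 1.5-fold and 82.4% of 2-fold changes. Before changes were put in, the noise was normal and independent, with each probe set's SD the same in both genotypes. Most members had a larger SD in KO livers, so these shares need not hold for them. Promoter letters are from RefSeq (GRCm38.p6). Figures used matplotlib 3.10.9 in Python 3.11.15.

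The members and lists were chosen with earlier results of these data known. The text names all members, up to 4 called genes of each list or, where none was called, its brightest tested gene. Some further genes are marked as named after their values were seen. Alternatives covered normalization, floor, offset, filter, variance model, replicate block and each liver left out.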

Additional observations from a re-analysis of the deposited data

Results flagged for a closer look

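Dixon's ratio for groups of 5 was applied to the log2 values of the 12 tested member probe sets in each genotype, 24 groups in all, of which chance flags about 1 in 20, or 1.2. It set 3 values apart. Lhx2 in KO replicate 1 had a log2 value of 4.98 (an intensity of 31.6), below the nearest KO liver at 6.46. Col3a1 1427884_at in KO replicate 4 had 7.29 (156), above the nearest KO liver at 6.56. Col1a1 1455494_at in WT replicate 2 had 5.81 (56.1), below the nearest WT liver at 6.49. Each lay in another liver, and without that liver none of these probe sets was called.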

How the results depend on the processing

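The count of member probe sets called was 0 under all 20 alternatives, with a lowest adjusted p of 0.306. Of 240 changes (12 probe sets, 20 alternatives) 207 kept their sign, as did all of Lum, Col1a1 1423669_at and Col3a1 1427884_at. The sign turned for Col1a1 1455494_at with median scaling (0.072), an offset of 16 (0.000127) and array weights (0.046), and for Col3a1 1427883_a_at without normalization (-0.010). Median scaling moved the median of all tested probe sets to 0.06. Omitting single livers gave -0.14 to 0.37 for Lhx2, -0.34 to 0.075 for Pdgfra, -0.28 to 0.11 for Col1a2 1423110_at, -0.22 to 0.11 for Col1a2 1450857_a_at, -0.11 to 0.13 for Col3a1 1427883_a_at, -0.21 to 0.19 for Col1a1 1455494_at, -0.072 to 0.24 for Pdgfrb, -0.078 to 0.11 for Dcn and -0.048 to 0.13 for Reln. Among list genes that were not called, the sign turned for Pdgfc (-0.025) and Slc4a1 (-0.068) without normalization and for Alcam (0.036) and Afp (0.056) with median scaling. Single omissions gave -0.12 to 0.15 for Pdgfc, -0.14 to 0.27 for Vldlr, -0.12 to 0.046 for Alcam, -0.012 to 0.0060 for Afp, -0.20 to 0.39 for Tff3, -0.082 to 0.055 for Slc4a1 and -0.00291 to 0.044 for Ppib.

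The count over all probe sets, 44, was 81 with median scaling (59 higher, 22 lower), 11 with the lowest positive value as floor, 4 with no filter, 6 without trend, 128 with array weights, 119 with the replicate block, and 9 to 147 without single livers, 147 without WT replicate 5. In deviations from the genotype means, KO and WT livers of the same number correlated at 0.05 to 0.19. Livers of different numbers were not compared, so these values cannot decide whether the numbers mark pairs or batches. The main fit treated the livers as unpaired. Correlated member pairs numbered 3 with genotype means kept and 0 to 2 without single livers, 2 without KO replicate 3. The causes were not tested. The upper 95% bounds of the member intervals ran from 1.23-fold (Dcn) to 1.89-fold (Col1a1 1423669_at). The lower bounds ran from 0.589-fold (Pdgfra) to 1.03-fold (Col3a1 1427884_at). Except for Col3a1 1427884_at, increases and decreases up to a probe set's own bounds are within its interval. The interval of Col3a1 1427884_at holds increases only.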
